A study of Mus musculus with 25 samples.

Results

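The chromatin contacts of uninduced mouse embryonic fibroblasts (MEFs) were compared between 2 assays, H3K27ac HiChIP and Hi-C. Each contact is a pair of 10 kb bins on 1 chromosome, called its anchors, that the authors listed as a high-confidence interaction. The members were all bin pairs in either MEF list, sorted into those in both lists and those in 1 list, with both anchors required to match exactly. There were 260276 such pairs, of 472713 in the 6 contact lists of the series read here. Both lists held 28677 of them, 32193 were in the HiChIP list only and 199406 in the Hi-C list only. The series follows fibroblasts through reprogramming to pluripotency, with KLF4 and H3K27ac HiChIP and Hi-C, in 25 libraries, of which 4 are used here. They are 2 H3K27ac HiChIP and 2 Arima Hi-C libraries. The cells of all 4 came from rtTA3-OKSM embryos (E13.5). They carried 1 copy each of an Oct4-GFP reporter, the OKSM cassette that encodes the reprogramming factors, and rtTA3, the activator through which doxycycline switches that cassette on. The fibroblasts were grown in low oxygen, collected at passage 3 and fixed with 1% formaldehyde, and the labels name no doxycycline exposure for them. No label says that replicates came from separate cultures or embryos, so p-values measure only the spread between these libraries.

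Hi-C joins and sequences DNA ends that lie close together in fixed nuclei, whatever proteins they carry. HiChIP adds an immunoprecipitation, here for histone H3 acetylated at lysine 27, a mark of active promoters and enhancers, and so reads contacts with at least 1 marked end. In fibroblasts such chromatin is known to lie at genes for extracellular matrix, for actin fibres and for transcription factors such as AP-1, which binds many fibroblast enhancers.

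The contacts in both lists are the same pairs, so they necessarily make up a larger share of the short HiChIP list than of the long Hi-C list. Of the 60870 HiChIP contacts, 47.1% were in the Hi-C list (95% Wilson interval 46.7 to 47.5%, counting error only). Of the 228083 Hi-C contacts, 12.6% were in the HiChIP list (12.4 to 12.7%). Where each anchor was allowed to lie 1 bin away, the shares were 81.1% and 31.0%. With the Hi-C list cut to the length of the HiChIP list, the share of HiChIP contacts in it fell to 20.8% by counts and 15.2% by p-value. A shared pair also shares its anchors, and 37436 bins were anchors in both lists. They were 85.4% of the 43848 HiChIP anchor bins and 32.3% of the 115900 Hi-C anchor bins. The Hi-C anchors took 115900 of 262764 bins, counted up to the last listed bin of each chromosome. For 69.4% of the contacts listed by HiChIP alone, both anchors were also Hi-C anchors, paired there with other bins, and for 8.32% neither was. Of the contacts listed by Hi-C alone, 53.8% had no anchor among the HiChIP anchors and 19.1% had both. A pair missing from a list has no count in it and may hold any number of reads below the authors' limits.

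Genes of the fibroblast and actin programmes carried HiChIP contacts far more often than the average gene, while Hi-C contacts were common at silent lineage genes too. Gene starts came from RefSeq (GRCm38.p6, the mm10 assembly) and placed 17274 protein-coding genes. Of these, 37.2% had at least 1 HiChIP contact at the bin of a start, and 60.8% had a Hi-C contact. More contacts in the HiChIP than in the Hi-C list were found at 13.4% of genes, and more in the Hi-C list at 48.3%, the longer of the 2. The lists of genes below were chosen with earlier results of these data known and are described by counts, beside these values for all genes. The HiChIP list holds pairs with a deposited p-value up to 0.0996, the Hi-C list only up to 0.00997. Contact numbers per gene therefore rest on unlike limits, and they were not recounted at a matched p-value limit. With a deposited p under 0.01 in both lists, the share of HiChIP anchor bins with more HiChIP contacts went from 32.0% to 22.1%.

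Genes of AP-1, of the TEAD and YAP response and of TGF-beta signalling had the most marked excess of HiChIP contacts. All 15 placed genes of the 20 on that list had contacts in both assays, 11 had more in HiChIP and 2 more in Hi-C. The median was 6 HiChIP and 3 Hi-C contacts, against 0 and 1 over all genes. Fosl2, a FOS-related AP-1 subunit, had 12 HiChIP contacts with 250 and 393 counts in the 2 HiChIP libraries, and 1 Hi-C contact with 17 and 12 counts. Jun, the core AP-1 subunit, had 10 HiChIP contacts with 205 and 323 counts, and 3 Hi-C contacts with 54 and 50 counts. Its farthest HiChIP partner lay 850 kb away and its farthest Hi-C partner 810 kb away, so the long reach of this gene appeared in both assays. At Fos the numbers were 9 and 6, and at Amotl2, a YAP target that encodes a junction protein, 10 and 9. Smad3, which carries the TGF-beta signal to the nucleus, went the other way with 4 and 10, as did Atf3, a stress-induced AP-1 partner, with 3 and 7.

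Among 16 placed actin and contractile genes, 8 had more HiChIP and 4 more Hi-C contacts, with medians of 4.5 and 3.5. Tpm1, a tropomyosin that coats actin filaments, stood out with 16 HiChIP contacts, 300 and 510 counts, against 2 Hi-C contacts, 37 and 33 counts. Acta2, the smooth muscle actin of contractile fibroblasts, had 15 HiChIP contacts with 250 and 386 counts, and 2 Hi-C contacts with 49 and 41 counts. Myh9, the heavy chain of non-muscle myosin, had 13 and 5, and Cald1, an actin-binding regulator of contraction, 12 and 7. Srf, the serum response factor that drives many actin genes, had 12 HiChIP contacts with 204 and 334 counts, and 4 Hi-C contacts with 65 and 62 counts. Vcl, which ties actin to adhesion sites, had nearly equal numbers of 10 and 9. Actn1, an actin crosslinker, had 3 and 7. The difference between the assays therefore varied widely within the list.

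Matrix and surface genes were rich in contacts in both assays. Of 15 placed genes on a list of 24, 13 had HiChIP and 12 had Hi-C contacts, 5 had more in HiChIP and 7 more in Hi-C. Col6a1, a collagen VI chain, had 10 HiChIP contacts with 252 and 414 counts, and 16 Hi-C contacts with 442 and 398 counts. Its neighbour Col6a2 had 8 and 15, Col5a1, a chain of collagen V, 8 and 11, and Postn, a matrix protein of connective tissue, 2 and 12. Tgfbi, a secreted adhesion protein induced by TGF-beta, had 9 HiChIP contacts with 212 and 372 counts, and 2 Hi-C contacts with 59 and 43 counts. Of genes named after their values were seen, Sparc, which binds collagen, had 8 HiChIP contacts with 267 and 490 counts. At the bin of its start it had none in the Hi-C list. Over all bins they overlap, Sparc had 19 HiChIP and 9 Hi-C contacts, and Tgfbi 19 and 25. Mesenchymal transcription factors were near the shares of all genes. Of 13 placed, 6 had a HiChIP contact (46.2%, beside 37.2% of all genes), and 2 had more HiChIP than Hi-C contacts (15.4%, beside 13.4%). They were Runx1 with 24 and 10, and Prrx1, a limb mesenchyme factor, with 9 and 3. Prrx2 had 3 and 11. Over all bins they overlap the order turned for Runx1, with 66 HiChIP and 80 Hi-C contacts. Prrx1 then had 17 and 5, and Prrx2 4 and 35.

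Pluripotency genes, which fibroblasts are known to keep silent, were almost bare of HiChIP contacts, though not of Hi-C contacts. Of 16 placed pluripotency genes, 2 had a HiChIP contact, 11 had a Hi-C contact, and none had more in HiChIP. Dnmt3l, the cofactor of DNA methylation in germ cells, had 0 HiChIP and 23 Hi-C contacts, with 544 and 574 counts in the Hi-C libraries. Fgf4, a growth factor of pluripotent cells, had 0 and 11, Esrrb, a nuclear receptor of the naive state, 0 and 8, and Lin28a, an RNA-binding protein, 0 and 7. Nanog had 1 in each assay, a contact in both lists, with 19 and 32 HiChIP and 19 and 30 Hi-C counts. Klf2 had 1 and 4. Pou5f1, Sox2, Zfp42, Tet1 and Tdgf1 had none in either list at the bins of their starts. Over all bins they overlap, Pou5f1 had 5 HiChIP and 3 Hi-C contacts, Tet1 1 and 14, Tdgf1 0 and 2 and Sox2 0 and 1.

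Markers of other cell types that a fibroblast culture could hold were read in 5 lists, and no marker had more HiChIP than Hi-C contacts in the lists as deposited. A HiChIP contact was found at 0 of 4 placed blood markers, 1 of 5 endothelial, 1 of 6 neural, 2 of 7 muscle and 3 of 5 epithelial markers. Hi-C contacts were found at 3, 4, 6, 6 and 5 of these genes. Elavl3, a neuronal RNA-binding protein, had 1 HiChIP contact with 13 and 16 counts, and 14 Hi-C contacts with 272 and 328 counts. Des, the muscle filament protein desmin, had 2 and 13, Myog, a muscle differentiation factor, 0 and 10, and Tnnt2, cardiac troponin T, 0 and 7. Epithelial markers had HiChIP contacts more often than the 37.2% of all genes. They were Cldn4 with 5, Krt8 with 3 and Krt18 with 3, against 6, 6 and 5 in Hi-C. With the Hi-C list cut to equal length by counts, 3 epithelial and 1 muscle marker had more in HiChIP. What share of the HiChIP counts came from other cells was not tested.

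The Hox genes, whose clusters keep the position of origin of fibroblasts, had a HiChIP contact at 8 and a Hi-C contact at 19 of 22 placed genes. Hoxa10 had 4 in each assay and Hoxb4 had 4 and 3, whereas Hoxc4 had 1 and 13 and Hoxa13 had 0 and 5. Several Hox genes share a bin, so their numbers are not independent. Ribosomal protein genes, which every cell uses, had a HiChIP contact at 39 and a Hi-C contact at 46 of 64 placed genes, and 20 had more in HiChIP. Their largest HiChIP numbers were 9 at Rpl26 and at Rps27l, against 6 and 2 in Hi-C, and 8 at Rpl10, Rpl13a and Rps18. Of 940 placed olfactory receptor genes, silent outside the nose, 19 had a HiChIP and 94 a Hi-C contact.

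**Figure D1:**
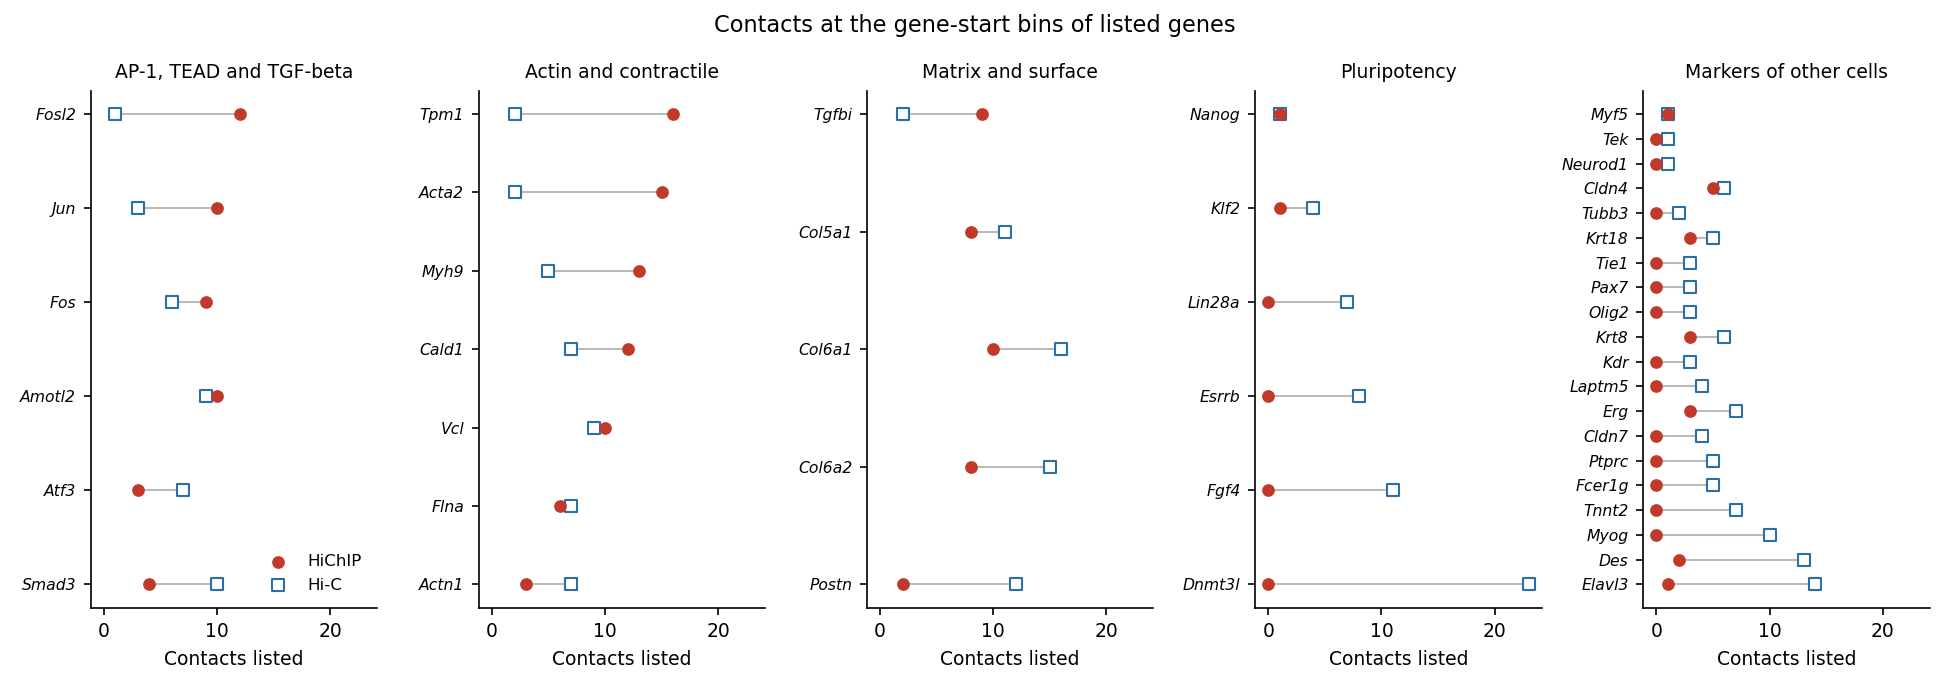
Number of contacts listed at the gene-start bins (x axis) of the named genes of each list (y axis), with a filled circle for the HiChIP list and an open square for the Hi-C list. Fosl2, Tpm1 and Acta2 have 12, 16 and 15 HiChIP contacts beside 1 or 2 Hi-C contacts, whereas Dnmt3l, Fgf4 and Myog have only Hi-C contacts.

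With the Hi-C list shortened to 60870 contacts by counts, the share of all genes with more HiChIP contacts was 26.9%. With the same cut it was 15 of 15 for the AP-1, TEAD and TGF-beta list, 14 of 16 for actin genes and 12 of 15 for matrix genes. It was 35 of 64 for ribosomal protein genes, 6 of 22 for Hox genes, 4 of 13 for mesenchymal factors and 1 of 16 for pluripotency genes. Shortened by p-value, it was 27.5% of all genes, 14 of 15, 14 of 16, 7 of 15, 32 of 64, 4 of 22, 2 of 13 and 2 of 16 in the same order. Neither cut makes the lists alike in distance. Of the contacts left in Hi-C alone, 0.595% spanned 50 kb or more with the cut by counts and 63.0% with the cut by p-value. These alternatives were chosen after seeing the data. Counting all bins that a gene overlaps, which placed every listed gene, gave more HiChIP contacts at 13 of 20 AP-1, TEAD and TGF-beta genes, 7 of 18 actin genes, 7 of 24 matrix genes and 1 of 24 pluripotency genes (Pou5f1), beside 9.56% of 21631 genes.

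The starts of 4 genes with many HiChIP and few Hi-C contacts, and of 2 with Hi-C contacts alone, are shown by the 250 bases upstream of transcription, from RefSeq GRCm38.p6. They lie at chr9:67049214-67049463 (minus strand), chr19:34255374-34255623 (minus strand), chr15:77842176-77842425 (minus strand), chr5:32136222-32136471 (plus strand), chr10:78055085-78055334 (plus strand) and chr7:144861136-144861385 (plus strand). Dnmt3l has 3 starts in the table, and the one whose bin had most contacts, 13 by Hi-C, is given. Each reads 5′ to 3′ on the gene's strand, with capitals for matches on either strand to the AP-1 motif TGANTCA, the TATA motif TATAAA, the CCAAT box, the GC box GGGCGG and the CArG box of serum response factor in its strict form (CC, 6 bases that are each A or T, then GG). Matches of different motifs may overlap.
Tpm1: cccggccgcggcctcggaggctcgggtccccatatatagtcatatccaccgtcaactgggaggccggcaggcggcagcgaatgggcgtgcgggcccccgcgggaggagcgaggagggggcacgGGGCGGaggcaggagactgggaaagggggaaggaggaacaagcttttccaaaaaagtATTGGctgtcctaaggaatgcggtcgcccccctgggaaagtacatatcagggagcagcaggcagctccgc
Acta2: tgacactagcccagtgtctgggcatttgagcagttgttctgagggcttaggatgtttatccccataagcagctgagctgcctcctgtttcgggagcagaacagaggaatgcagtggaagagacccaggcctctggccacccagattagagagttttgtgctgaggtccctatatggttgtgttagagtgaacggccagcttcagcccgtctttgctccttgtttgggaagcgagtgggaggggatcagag
Myh9: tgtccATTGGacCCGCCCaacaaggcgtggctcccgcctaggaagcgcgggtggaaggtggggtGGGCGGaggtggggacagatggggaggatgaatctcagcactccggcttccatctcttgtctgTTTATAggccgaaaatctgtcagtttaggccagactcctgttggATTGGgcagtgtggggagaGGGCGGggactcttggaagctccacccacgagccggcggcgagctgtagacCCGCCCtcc
Fosl2: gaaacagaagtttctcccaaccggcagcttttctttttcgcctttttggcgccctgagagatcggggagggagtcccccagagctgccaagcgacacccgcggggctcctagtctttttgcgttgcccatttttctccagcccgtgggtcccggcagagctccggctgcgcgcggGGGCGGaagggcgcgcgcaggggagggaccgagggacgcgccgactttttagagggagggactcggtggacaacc
Dnmt3l: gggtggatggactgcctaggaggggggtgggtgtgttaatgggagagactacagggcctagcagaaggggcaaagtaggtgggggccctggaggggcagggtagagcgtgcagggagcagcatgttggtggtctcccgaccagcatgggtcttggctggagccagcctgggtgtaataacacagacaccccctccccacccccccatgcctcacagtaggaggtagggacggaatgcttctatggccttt
Fgf4: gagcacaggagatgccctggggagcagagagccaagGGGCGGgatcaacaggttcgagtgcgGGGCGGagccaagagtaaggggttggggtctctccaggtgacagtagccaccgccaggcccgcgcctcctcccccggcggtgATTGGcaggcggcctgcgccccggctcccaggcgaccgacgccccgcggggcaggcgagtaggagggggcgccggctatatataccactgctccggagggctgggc
The Tpm1, Fosl2 and Fgf4 stretches are rich in CG dinucleotides, with 19, 23 and 21, against a median of 6 over all 32619 RefSeq windows. The Myh9 stretch had 14, with 4 GC boxes, 2 CCAAT motifs and 1 TATA motif. Those of Acta2 and Dnmt3l had 4 and 3, and no exact match to any of the 5 motifs, and near matches were not searched. So many HiChIP contacts occurred at starts of both kinds, and the same holds for Hi-C contacts alone. Of all windows, 33.0% held the GC box, 12.4% TATA, 6.78% the AP-1 motif and 1.48% the CArG box, and 11094 held CCAAT. Among 3942 windows at bins with more HiChIP than Hi-C contacts, 48.5% held the GC box and the median CG number was 14. Among 17015 with more Hi-C contacts these values were 34.8% and 6, and among 10282 with no contact 22.2% and 3. The AP-1 motif differed less, at 5.73%, 6.46% and 7.80%. A match is a description of letters and not of a bound site.

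In the 28677 contacts listed by both assays, each library has a count, so the strength of the same contact could be compared. Contacts at Vmp1, Ahnak and Amotl2 were among those stronger in HiChIP relative to the other common contacts, by 2.57 to 3.28 on the log2 scale, while a few at Sfi1 and Mroh2a were stronger in Hi-C. Of 28638 contacts tested with edgeR's quasi-likelihood test, 2929 differed at a Benjamini-Hochberg adjusted p under 0.05, which is 10.2%. Of them 2354 (8.22% of those tested) were higher in HiChIP and 575 (2.01%) higher in Hi-C. The calls differed between chromosomes, as did the count limits of the HiChIP list. On chromosome 1, where the limits are highest, 21.0% were higher in HiChIP and 0.557% higher in Hi-C. These shares were 5.23% and 4.39% on chromosome 17 and 3.96% and 3.21% on chromosome 19. With 1 scaling factor per chromosome the shares on these 3 were 10.2% and 5.12%, 7.13% and 3.08%, and 5.68% and 1.55%. On the X chromosome, with lowest HiChIP counts of 7 and 9, they were 5.61% and 0.351%, and with that scaling 3.07% and 1.14%. In 2923 of the 2929 the libraries of the 2 assays did not overlap. The calls come from the same counts, so this adds no support, and the share over all contacts tested was not computed. The split depends on the scaling: without TMM factors it was 2099 to 1000, and with 1 scaling factor per chromosome 2073 to 920, with the median log2 difference of all contacts at -0.02, -0.09 and -0.08 in the 3 fits. Leaving out either HiChIP library left no contact at an adjusted p under 0.05 with edgeR, with 4872 without replicate 1 and 2934 without replicate 2 at an unadjusted p under 0.05. DESeq2 called 450 contacts.

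The contact with the largest HiChIP excess joined 2 bins inside Vmp1, which encodes an autophagy protein and whose far end lies beside the gene of the microRNA miR-21 (chr11:86590001-86600000 and chr11:86650001-86660000). It had 120 and 209 counts in the HiChIP libraries and 21 and 19 in the Hi-C libraries, a log2 difference of 3.28 ± 0.22 (SE, edgeR adjusted p = 1.97e-13). No overlap between the libraries of the 2 assays was required of every common contact named here, so it adds no support. A contact from the start of Ahnak, a very large scaffold protein, to a bin in the far part of the gene 80 kb away had 53 and 101 against 12 and 14 counts (2.80 ± 0.27, adjusted p = 9.89e-10). One from the Amotl2 start to a bin 70 kb upstream had 62 and 135 against 22 and 17 (2.57 ± 0.25, adjusted p = 1.67e-09).

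Iqgap1, a scaffold that links signalling to actin, lay at 1 anchor of a 40 kb contact with 57 and 111 against 18 and 16 counts. A contact of 80 kb with 1 anchor in Pfdn1, a subunit of a chaperone for actin and tubulin, had 77 and 127 against 21 and 20. Another 4 of the 10 largest HiChIP excesses had no protein-coding gene at either anchor and log2 differences of 2.42 to 2.60. Other kinds of genes were not looked up. One of these, on chromosome 6, ended 1 bin before the bin of the start of Fbln2, which encodes the matrix protein fibulin-2.

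In the other direction, a 60 kb contact inside Sfi1, which encodes a centrosome protein, had 58 and 53 counts by HiChIP and 312 and 315 by Hi-C (log2 difference -2.22 ± 0.18, edgeR adjusted p = 1.16e-11). Adjacent bins at Hjurp and Mroh2a on chromosome 1 had 45 and 54 against 212 and 226 (-1.88 ± 0.18, adjusted p = 1.28e-09). A contact of 110 kb between Slit1 and Arhgap19 had 9 and 12 against 42 and 40 (-1.70 ± 0.30, adjusted p = 8.55e-05). These 3 and the next 6 Hi-C excesses, which ranged down to -1.37 inside Anks1, lay on chromosomes 1, 11, 17 and 19. The lowest listed HiChIP counts were 8 and 11 on chromosome 17 and 6 and 8 on chromosome 19, against 19 and 26 on chromosome 1. Pairs with HiChIP counts such as 9 and 12 were therefore not listed on chromosome 1. With DESeq2, 3 of the next 6 missed an adjusted p under 0.05 (0.0670 to 0.126) and 2 had no adjusted p, and 13 contacts in all were called higher in Hi-C. The strongest contacts listed by Hi-C alone lay at the same 2 loci, with 1524 and 1574 counts inside Sfi1 and 265 and 264 at Mroh2a and the Ugt1a genes. Sfi1 and Ugt1a are known for near-identical copies, so how reads were assigned there is uncertain, and it was not tested.

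**Figure D2:**
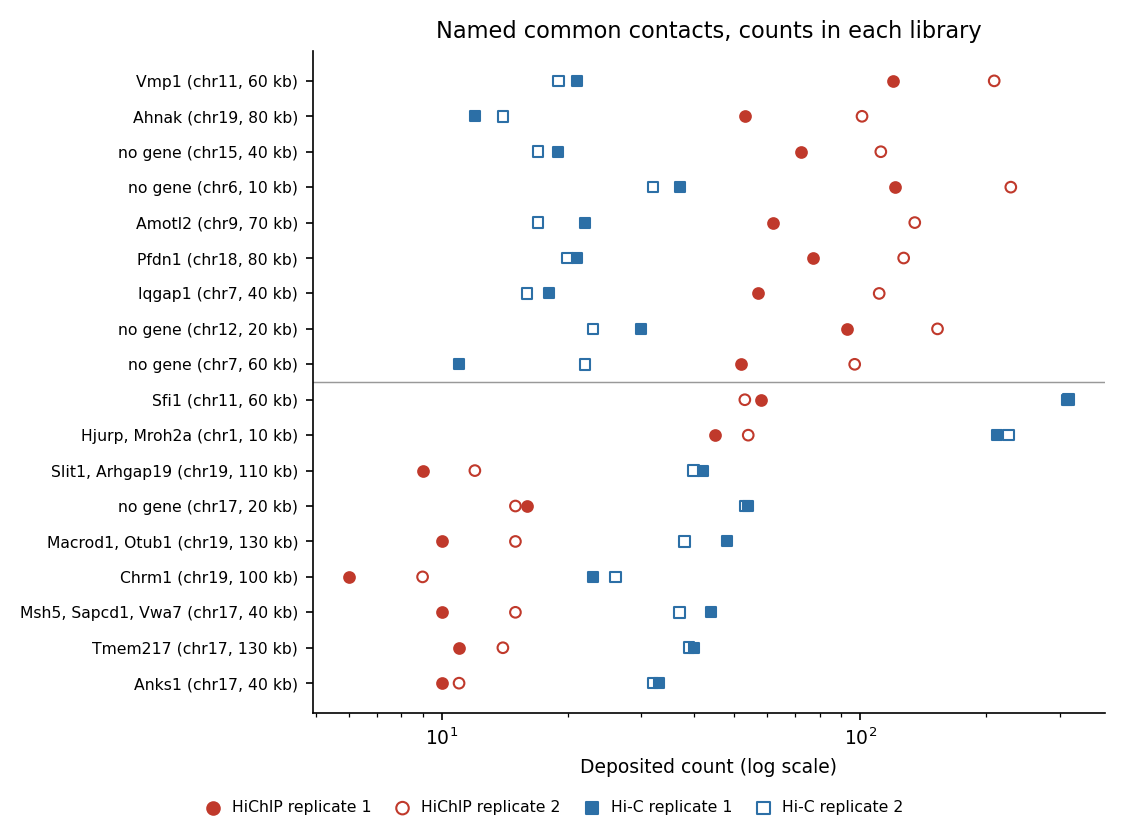
Deposited counts (x axis, log scale) of the named common contacts (y axis, with the protein-coding genes at their anchors, chromosome and distance) in each of the 4 libraries, circles for HiChIP and squares for Hi-C. Above the line both HiChIP libraries exceed both Hi-C libraries, as at Vmp1 with 120 and 209 against 21 and 19, and below it the order is opposite.

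Gene groups also differed in these common contacts. Those of 1 gene share an anchor, so the contacts counted here are not independent. At matrix genes many came from Col6a1, with 9, and from Col6a2 and Col5a1, with 7 each. Of 37 that touched a start of a matrix or surface gene, 20 were higher in HiChIP and none lower, with a median log2 difference of 0.85, beside 8.22% higher and a median of -0.02 over all. They included 6 of 7 common contacts of Col5a1, 3 of 3 of Vim and 3 of 3 of Col1a2. Fewer were called at other matrix genes, with 2 of 9 at Col6a1, 2 of 7 at Col6a2 and 0 of 2 at Postn. Of 37 at AP-1, TEAD and TGF-beta genes, 17 were higher and none lower, with a median of 0.75. Among them were all 3 of Junb and 3 of 4 of Fosb, but 2 of 6 of Fos and 0 of 3 of Tgfbr2. Of 37 at actin genes, 12 were higher and none lower (median 0.64), with 3 of 4 at Myh9 and 4 of 8 at Vcl. At Srf it was 1 of 4, at Cald1 0 of 3 and at Acta2 0 of 2. Prrx1, a mesenchymal factor, had 3 of 3. With 1 scaling factor per chromosome, 45.9% of contacts at matrix genes were higher, with a median of 0.59. At AP-1, TEAD and TGF-beta genes 43.2% were higher (median 0.67) and at actin genes 32.4% (median 0.58). In that fit the matrix and the actin list each had a share of 2.70% called lower. Contacts at mesenchymal factors had 7.14% lower and a median of 0.04, against 0.27 in the main fit. Of 49 contacts at ribosomal protein genes 2 were higher, both at Rpl10, and of 2 at pluripotency genes and 6 at Hox genes none was called.

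A start at an anchor did not by itself go with a HiChIP excess: 8.56% of common contacts with no start at an anchor were higher in HiChIP, 7.55% of those with a start at 1 anchor and 5.95% of those with starts at both. The number of HiChIP contacts at the busier anchor went with it more closely. Where that anchor had 1 to 4 HiChIP contacts 0.903% were higher, with 5 to 9 7.29%, with 10 to 19 22.2%, and with 20 or more 48.0%, which is 118 of 246. That number comes from the HiChIP counts themselves, so this is a description with no test. With distance the share went from 5.26% of contacts between adjacent bins to 15.4% of those spanning 50 to 90 kb and 11.3% at 200 kb or more. The authors' ratio of a count to that expected at its distance was 2.85 and 3.02 in the HiChIP libraries and 1.94 and 1.89 in the Hi-C libraries, as medians over the common contacts.

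**Figure D3:**
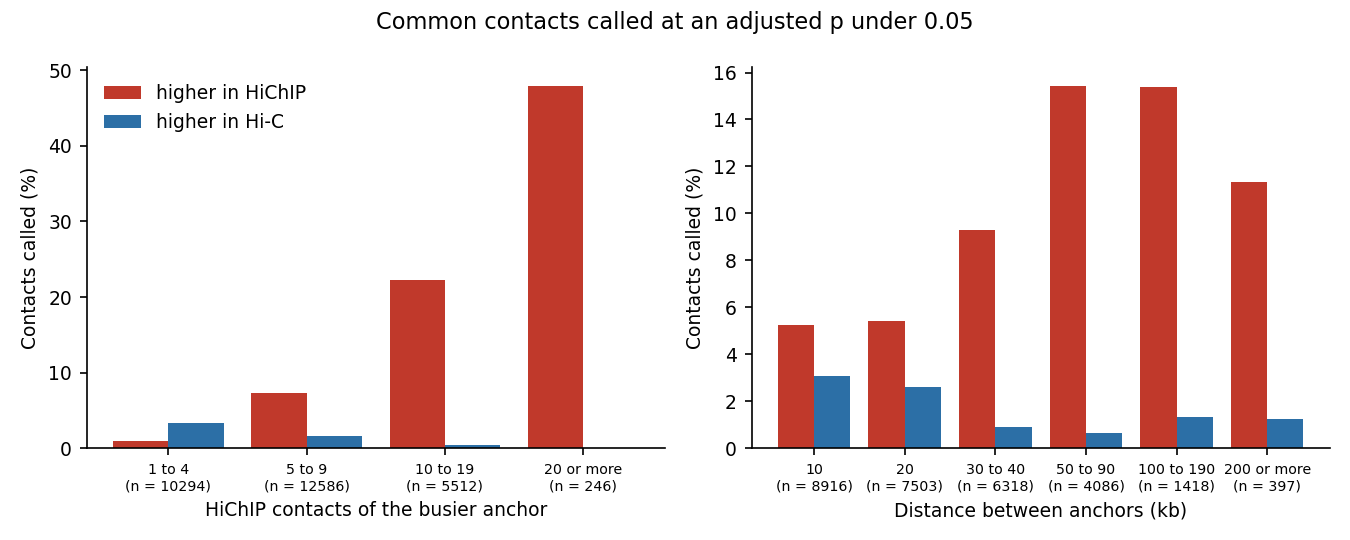
Percent of common contacts called higher in HiChIP (red) or in Hi-C (blue) at an edgeR adjusted p under 0.05 (y axis), by the number of HiChIP contacts of the busier anchor (left) and by distance in kb (right), with n contacts tested. The HiChIP share goes from 0.903% to 48.0% on the left, and from 5.26% to 15.4% at 50 to 90 kb on the right.

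Most of the busiest bins of 1 assay were not among the busiest of the other, though they overlapped in part. The HiChIP list had a median of 2 contacts per anchor bin and a highest of 38, with 47 bins at 20 or more. The longer Hi-C list had a median of 3 and a highest of 27, with 28 bins at 20 or more. Cut to the length of the HiChIP list by counts, its highest was 10, and by p-value 20, with 4 and 672 bins at 10 or more against 1339 in HiChIP. The 47 busiest HiChIP bins had a median of 6 and at most 13 Hi-C contacts, with 10 or more at 11 of them. Of the 1339 HiChIP bins with 10 or more contacts, 300 also had 10 or more in Hi-C, beside 6.38% of all Hi-C anchor bins. The 28 busiest Hi-C bins had a median of 1.5 HiChIP contacts, with none at 10 of them. Over the 37436 bins in both lists, Spearman's rho between the 2 contact numbers was 0.16, across bins that share libraries and mappability.

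The bin with most HiChIP contacts lay inside Glis3, a zinc finger transcription factor gene, at chr19:28620001-28630000. It had 38 contacts with 648 and 1023 counts, reaching up to 460 kb, against 2 Hi-C contacts with 57 and 49 counts. A bin with no protein-coding gene on chromosome 15 (chr15:62330001-62340000) had 31 against 1, and its farthest HiChIP partner lay 630 kb away. The bin of the Ahnak start had 32 against 5, with 736 and 1348 HiChIP counts. A bin inside Ldlrad4, which encodes an inhibitor of TGF-beta signalling, had 29 against 6. One with no protein-coding gene on chromosome 13 had 27 against 2. The largest differences the other way lay inside Sez6l2, a gene of the nervous system, with 0 HiChIP and 25 Hi-C contacts, and inside Runx3 with 0 and 22. The others lay at 3 bins with no protein-coding gene, with 0 against 21 to 23. Over all HiChIP anchor bins, 32.0% had more contacts in HiChIP than in Hi-C.

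Starts of genes were more common at the anchors that HiChIP lists. A protein-coding start lay in 13.7% of HiChIP anchor bins and 8.94% of Hi-C anchor bins, against 6.53% of all bins. Anchor bins of the Hi-C list that HiChIP lacked had 6.62%. Of contacts in both lists 27.4% had a start at 1 anchor or both, of those in HiChIP alone 25.5% and of those in Hi-C alone 16.5%. Starts at both anchors were found in 1148, 1123 and 3273 contacts of these 3 classes. In the whole HiChIP list 73.6% touched no protein-coding start of this table, which leaves out many genes.

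In the lists as deposited, contacts listed by Hi-C alone spanned longer distances than the others. Their median was 40 kb, against 20 kb for contacts in both lists and for those in HiChIP alone, and 39.3% spanned 50 kb or more, against 20.6% and 23.9%. Contacts of 50 kb or more took 16.0% and 15.9% of the listed counts in the 2 HiChIP libraries, and 23.6% and 23.6% in the Hi-C libraries. Both libraries of an assay were read over the same listed pairs, so their near-equal values are not independent. An exact permutation test of 2 against 2 libraries cannot give a two-sided p below 0.333, and the difference was not tested. The share of HiChIP contacts that Hi-C also listed was 48.4% between adjacent bins and 30.6% at 500 kb or more. Of Hi-C contacts the share in both lists was 18.7% and 5.69%. Among contacts with counts of at least 19 and 26 in the HiChIP libraries, the highest of the limits found on any chromosome, only 6.09% of those in HiChIP alone spanned 50 kb or more. The order turned with a deposited p under 0.01 required in both lists, to 45.4% of contacts in HiChIP alone and 37.0% in Hi-C alone. With the Hi-C list cut to equal length by counts these shares were 27.9% and 0.595%, and with the cut by p-value 19.9% and 63.0%. The cut by counts keeps mostly close pairs, whose counts are highest, so its order is set by the cut. Contacts in Hi-C alone then had a median of 10 kb.

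Some long contacts were strong in 1 assay and missing from the other list. The bin of the Vim start, which encodes the intermediate filament protein of mesenchymal cells, met a bin in Cubn 170 kb away with 49 and 82 HiChIP counts. A bin in Itpr1, a calcium channel gene, met one in Bhlhe40, a transcription factor gene, 220 kb away with 46 and 63 counts. A pair with no protein-coding gene on chromosome 10, 140 kb apart, had 49 and 94. In the Hi-C list alone, the largest long contact joined the starts of C130026I21Rik and Sp110, 320 kb apart, with 65 and 65 counts, in a family of near-identical copies. The next ones lay inside Kcnip1, a neuronal potassium channel subunit gene (180 kb, 46 and 57 counts), and Spata13 (170 kb, 48 and 46).

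**Figure D4:**
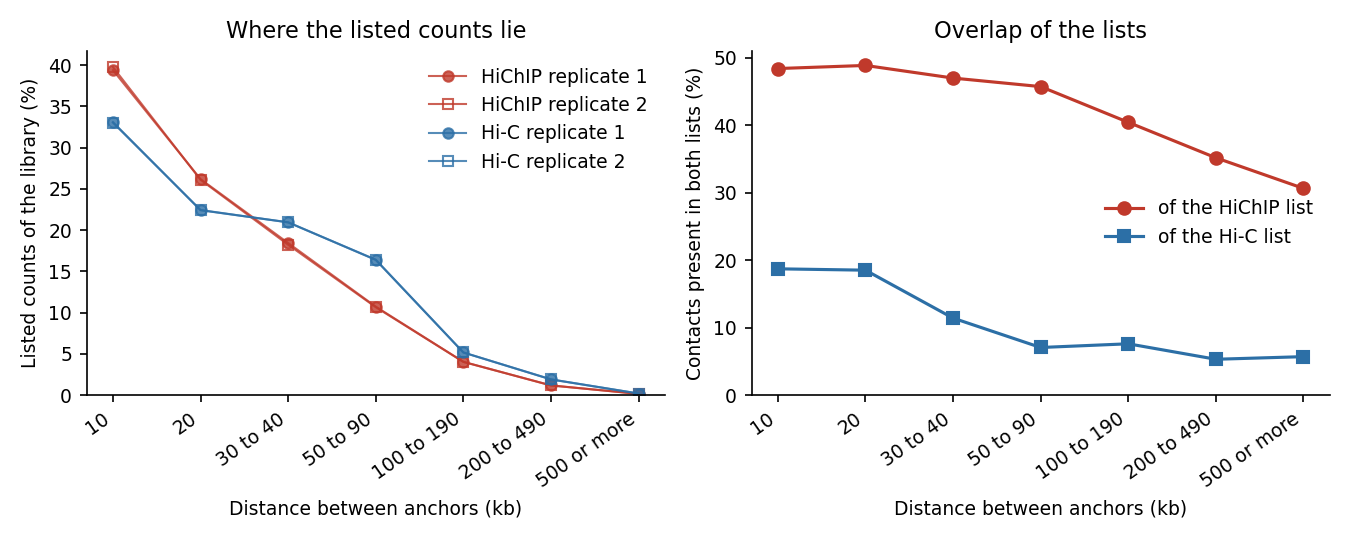
Left, share of the listed counts of each library (y axis, %) by distance between anchors in kb (x axis), with 1 line per library. Right, share of each list (y axis, %) that is in both lists, which goes from 48.4% to 30.6% of the HiChIP list and from 18.7% to 5.69% of the Hi-C list.

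The number of HiChIP contacts differed between chromosomes, and so did the lowest listed counts. The deposited CPM scales each count by a total of its own chromosome, and the cause of the differences was not tested. On chromosome 1 the lowest listed counts were 19 and 26 and there were 9.10 contacts per Mb. On chromosome 19 they were 6 and 8, with 81.6 contacts per Mb. The X chromosome went against this order, with lowest counts of 7 and 9 and 9.41 HiChIP contacts per Mb. The Hi-C list ranged from 68.6 to 125 contacts per Mb, with lowest counts of 11 to 13 except on the X chromosome, where they were 5. The share of HiChIP contacts also in Hi-C was 50.6% on chromosome 1, 34.8% on chromosome 19 and 73.7% on the X chromosome. With the counts of chromosome 1 required everywhere, chromosome 19 kept 974 of 5000 HiChIP contacts and 487 of these were in the Hi-C list. Several of the genes above, such as Acta2, Ahnak and Glis3, lie on chromosome 19, and genes on chromosomes 1 to 3 faced a higher limit.

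**Figure D5:**
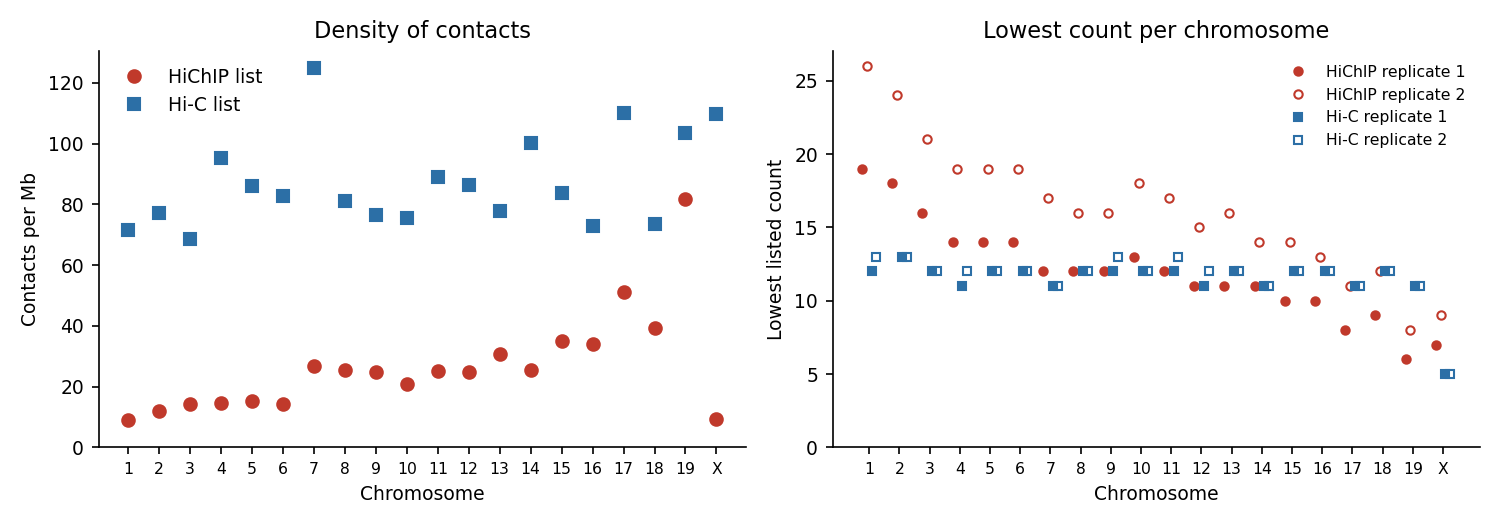
Contacts per Mb of each list (left) and lowest listed count of each library (right) by chromosome (x axis). HiChIP density is 9.10 on chromosome 1, with lowest counts of 19 and 26, and 81.6 on chromosome 19, with 6 and 8. On the X chromosome it is 9.41, with 7 and 9.

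The contacts were also looked up in the other lists of the series. Of contacts in both MEF lists 70.2% were in the Hi-C list of embryonic stem (ES) cells, of those in Hi-C alone 53.8% and of those in HiChIP alone 29.4%. The order differed for the ES H3K27ac HiChIP list, with 34.3%, 8.75% and 25.0%, and for the KLF4 HiChIP list of day 3 of reprogramming, with 21.3%, 2.66% and 14.9%. At day 6 the KLF4 shares were 5.26%, 0.583% and 2.03%. A boundary between the 2713 domains that the authors called in the MEF Hi-C data was crossed by 0.699% of contacts in both lists, 1.04% in Hi-C alone and 2.22% in HiChIP alone. At 100 to 190 kb these shares were 1.10%, 0.815% and 1.88%. The domains come from the same Hi-C libraries and cover 19 chromosomes.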

How the data were processed

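Counts, CPM, ratios to expectation, p-values and false discovery rates of each bin pair were deposited by the authors, 1 table per group with 2 libraries each. Alignment used Bowtie2 2.2.3 to mm10, per the submitters' processing notes. The interaction caller is not given in the sources used here. The deposited counts are whole numbers per bin pair. The CPM of the HiChIP table, as deposited, equals the count scaled by a whole total for each chromosome (20 of 20). The column of that name in the deposited Hi-C table follows no whole total (0 of 20) and was read as a signal on the authors' own scale. The ratio deposited by the authors is count over an expectation per chromosome and distance. A score per domain, as deposited by the authors with the domains, has no stated meaning, and only the positions were used. The listed pairs have a p-value, as deposited, below 0.1 for HiChIP and 0.01 for Hi-C, and 1.84% and 12.6% pass a false discovery rate of 0.1.

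Listed counts were 1218739 and 1878462 for HiChIP and 5576165 and 5635999 for Hi-C. Counts of replicates differed slightly beyond sampling noise (chi-square per degree of freedom 1.02 in both assays), so all were kept. Common pairs were tested with edgeR 4.0.16 (TMM, filterByExpr, quasi-likelihood, library size from common pairs). Simulated data with 200 pairs changed 2-fold returned 46% of them and 2 false calls. DESeq2 1.42.0, other scalings, filters, list lengths and left-out libraries were tried. Shares used Python 3.11.15, scipy 1.17.1 and 95% Wilson intervals, which cover counting error only.

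Contacts named were the 10 largest log2 differences each way among those called without overlap, the 5 strongest of each list alone, also at 100 kb or more, and the 5 bins with the largest difference each way, all 5 bins apart. For each gene list up to 4 genes with most contacts in each assay were named, and promoters for 6 of them. Other genes were named after their values were seen. The results of 2 named contacts are not reported here. The members and lists were chosen with earlier results of these data known.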

Additional observations from a re-analysis of the deposited data

How the results depend on the processing

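Of the 20 named common contacts, none changed direction in any setting, and without either HiChIP library all 20 missed an adjusted p under 0.05 with edgeR. DESeq2 kept 15, 3 missed an adjusted p under 0.05 and 2 had no adjusted p, these 5 all higher in Hi-C. The number called went from 2929 to 3099 without TMM, 2993 with 1 factor per chromosome, 2825 without the filter, 3412 with the authors' expectation as offset, 612 at 50 kb or more (fewer contacts tested) and 450 with DESeq2 (437 higher in HiChIP). Leaving out 1 library gave 0 to 1894. Without Hi-C replicate 1 it was 1894 and without Hi-C replicate 2 it was 1701. With a replicate block 3141 were called; same-numbered libraries did not deviate together (r = -0.01 across contacts), so the numbers are not read as pairs.

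The share of HiChIP contacts in the Hi-C list was 47.1%. It became 81.1% with anchors 1 bin away, 20.8% and 15.2% with the Hi-C list cut to equal length by counts or by p-value, 52.4% with p under 0.01 in both lists, 51.7% with 1 count limit for all chromosomes and 46.5% without adjacent bins. In the same order, the share of contacts in HiChIP alone spanning 50 kb or more (23.9%) became 27.5%, 27.9%, 19.9%, 45.4%, 6.09% and 33.9%. The share with a gene start (25.5%) became 23.3%, 26.3%, 25.7%, 24.2%, 25.4% and 25.4%. The share of HiChIP anchor bins with more HiChIP than Hi-C contacts (32.0%) became 66.7%, 72.2%, 22.1%, 22.4% and 31.9% without the first of these settings, which was not run for it. The share of contacts in HiChIP alone found in ES Hi-C (29.4%) became 15.1%, 41.2%, 42.7%, 30.1%, 31.4% and 29.0%, and the share crossing a domain boundary (2.22%) became 3.34%, 1.77%, 1.63%, 2.23%, 1.63% and 2.48%.

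The share of listed genes with more HiChIP contacts, with the Hi-C list cut by counts, by p-value or with all bins of the gene, became 80.0%, 46.7% and 29.2% of matrix genes (33.3%), 100%, 93.3% and 65.0% of AP-1, TEAD and TGF-beta genes (73.3%), and 87.5%, 87.5% and 38.9% of actin genes (8 of 16). For pluripotency genes (0%) it was 6.25%, 12.5% and 4.17%. The cut by p-value and all alternatives of the gene, ES and domain shares were chosen after seeing the data; the causes were not tested. With 2 libraries per assay and lists cut at the authors' limits, a contact missing from a list is not shown to be absent.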
